A study of Mus musculus with 7 samples.

Results

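The proximal tubule reclaims most of what the glomerulus filters, and 10 genes that carry out this work were followed in mouse kidney RNA. The genes were chosen by name: Lrp2 and Cubn for protein endocytosis, Slc34a1 and Slc34a3 for phosphate, Slc9a3 for sodium and protons, Slc4a4 for bicarbonate, Aqp1 for water, Slc13a1 for sulfate, Slc13a3 for dicarboxylates, and Pdzk1 for the scaffold beneath the brush border. All 10 were among the 17537 genes listed and among the 13976 genes tested. The study sequenced polyA RNA of renal tissue from 7 C57BL/6 mice, 1 library each, to ask which expression changes of diabetes last after blood glucose is lowered. The 3 nondiabetic controls (C, replicates 2, 8 and 9) had received citrate. The 2 untreated diabetic mice (DM-22, replicates 1 and 2) had received streptozotocin, a toxin of the insulin-producing beta cells, at 60 mg/kg on 5 days, and were hyperglycemic for 22 weeks. The 2 DM+SGLT2i mice (replicates 1 and 2) had the same streptozotocin and, from week 16, 6 weeks of dapagliflozin, given as 25 mg/kg with the drinking water. Dapagliflozin blocks SGLT2, the glucose transporter of the early proximal tubule, which is the segment under study. Mice were 8 to 10 weeks old at the start by the sample labels, which name males only, whereas the study's methods name both sexes for this strain. Streptozotocin models insulin deficiency, and no control mouse sequenced here received dapagliflozin, so an effect of the drug itself and one of lower glucose cannot be told apart.

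Cells of the proximal tubule carry a dense brush border on the side of the urine and sodium pumps on the side of the blood. The sodium gradient made by the pumps drives the uptake of phosphate, sulfate and dicarboxylates, and water follows through aquaporin channels. Albumin and vitamin carriers that pass the glomerulus bind megalin (Lrp2) and cubilin (Cubn) between the microvilli and are taken up by endocytosis. Because RNA came from renal tissue, which holds many cell types, fewer proximal tubule cells and less RNA per cell cannot be told apart.

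2 pairs of genes with related roles carry most of the comparisons that follow, and the 250 bases before the RefSeq start of each (GRCm38.p6) show the promoter sequence of each pair side by side. For the receptors of endocytosis, both on the minus strand, the stretch of Lrp2 is chr2:69586030-69586279 and that of Cubn is chr2:13491877-13492126, and neither held the motif searched.
Lrp2: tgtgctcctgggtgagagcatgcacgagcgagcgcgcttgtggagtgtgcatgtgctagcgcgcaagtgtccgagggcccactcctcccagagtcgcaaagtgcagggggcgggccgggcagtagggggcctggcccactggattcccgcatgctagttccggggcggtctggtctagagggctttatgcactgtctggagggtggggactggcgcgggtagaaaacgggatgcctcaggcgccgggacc
Cubn: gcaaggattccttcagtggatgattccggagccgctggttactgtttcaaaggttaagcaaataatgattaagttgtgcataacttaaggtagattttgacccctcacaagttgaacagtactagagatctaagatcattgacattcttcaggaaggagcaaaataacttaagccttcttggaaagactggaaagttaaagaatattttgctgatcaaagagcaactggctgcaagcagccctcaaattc
For the phosphate cotransporters, the stretch of Slc34a1 is chr13:55399398-55399647 on the plus strand and that of Slc34a3 is chr2:25234235-25234484 on the minus strand. Neither held the motif.
Slc34a1: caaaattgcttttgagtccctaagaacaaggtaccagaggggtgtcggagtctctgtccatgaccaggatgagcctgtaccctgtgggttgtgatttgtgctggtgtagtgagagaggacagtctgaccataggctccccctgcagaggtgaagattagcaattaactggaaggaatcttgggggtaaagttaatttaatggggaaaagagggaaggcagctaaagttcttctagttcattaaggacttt
Slc34a3: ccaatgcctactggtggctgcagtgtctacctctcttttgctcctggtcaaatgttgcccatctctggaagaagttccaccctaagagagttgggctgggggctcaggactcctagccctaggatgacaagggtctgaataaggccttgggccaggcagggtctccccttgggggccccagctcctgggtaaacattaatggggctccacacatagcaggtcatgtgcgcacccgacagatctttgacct
The motif searched on both strands was CAAAGTCC, a core of the HNF4 element. It stood in 0 of the 11 stretches found for 9 of the 10 genes, and in 1.20% of the 32851 mouse promoters of the same length, so no base above is in capitals. The RefSeq starts of Lrp2, Slc34a1 and Slc34a3 lie inside the genes as GENCODE annotates them, after the first annotated base, and that of Cubn lies before it. This describes the letters of the sequence alone, and Slc13a1 had no entry.

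Per kilobase of exon, Slc34a1 was the highest of the 10 genes and the 15th of all genes tested, at a mean of 1298 CPM per kilobase (RPKM) over the 7 libraries. CPM are reads scaled to a common library size by the authors' normalization, and RPKM divide them by the exon length of the gene. Aqp1 followed with 504 RPKM, Pdzk1 with 327, Slc13a3 with 200, Lrp2 with 121 and Slc4a4 with 103. Slc13a1 (48.8 RPKM), Cubn (40.9), Slc34a3 (18.4) and Slc9a3 (15.2) were the lowest. Some steps of this order held in every library: Pdzk1 lay above Slc13a3, Slc13a3 above Lrp2, Slc4a4 above Slc13a1, and Cubn above Slc34a3 in 7 of 7 libraries. Aqp1 lay above Pdzk1 in 6 of 7, Lrp2 above Slc4a4 in 5 of 7, and Slc13a1 above Cubn in 5 of 7. Slc34a3 lay above Slc9a3 in 3 of 7, so these neighbours did not differ beyond the spread of the libraries. Slc34a1 lay above Aqp1 in 5 of 7, the exceptions being C replicate 2 and DM-22 replicate 1.

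The libraries held between 46456125 and 56541594 reads on the listed genes, so counting error is small for these genes. A panel of 6 general proximal tubule markers (among them Fbp1, Miox, Ggt1, Slc27a2 and Acsm2) summed to between 13315 and 22345 CPM over the 7 libraries. Several libraries stood apart from their own group in at least 1 marker list. In C replicate 2, the 7 tubular injury markers summed to 6239 CPM against 931 and 762 in C replicates 8 and 9, and 2 of them, Havcr1 and Lcn2, stood at 29.5 and 74.9 CPM against at most 1.98 and 0.983. Cdkn1a, the cell cycle inhibitor p21, was at 72.7 CPM there against 4.63 and 5.36 in the other controls and 52.6 to 123 in the 4 diabetic libraries. Phlda3 was at 31.6 CPM there, against 5.18 and 4.81 in the other controls and 24.2 to 27.0 in the diabetic libraries, and Sugct at 31.7, against 138 and 146 and 38.5 to 54.3. By these 3 genes C replicate 2 was nearer to the diabetic libraries than to the other controls. Its tubular injury sum, in contrast, exceeded those of all 4 diabetic libraries, which ran from 1827 to 3095 CPM. In DM-22 replicate 1, the 7 thick ascending limb markers summed to 15642 CPM against 4989 in DM-22 replicate 2, and the 4 markers of thin limb and vasa recta, which lie deeper in the kidney, to 329 against 5.41. In C replicate 9, the 7 immediate early genes summed to 2574 CPM against 61.5 to 206 in the other 6 libraries. In DM+SGLT2i replicate 1, the 5 urothelium markers summed to 136 CPM against 4.46 in DM+SGLT2i replicate 2. Fold changes against C are therefore also given without C replicate 2, those of all 10 genes in the plot of log2 fold changes.

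**Figure D1:**
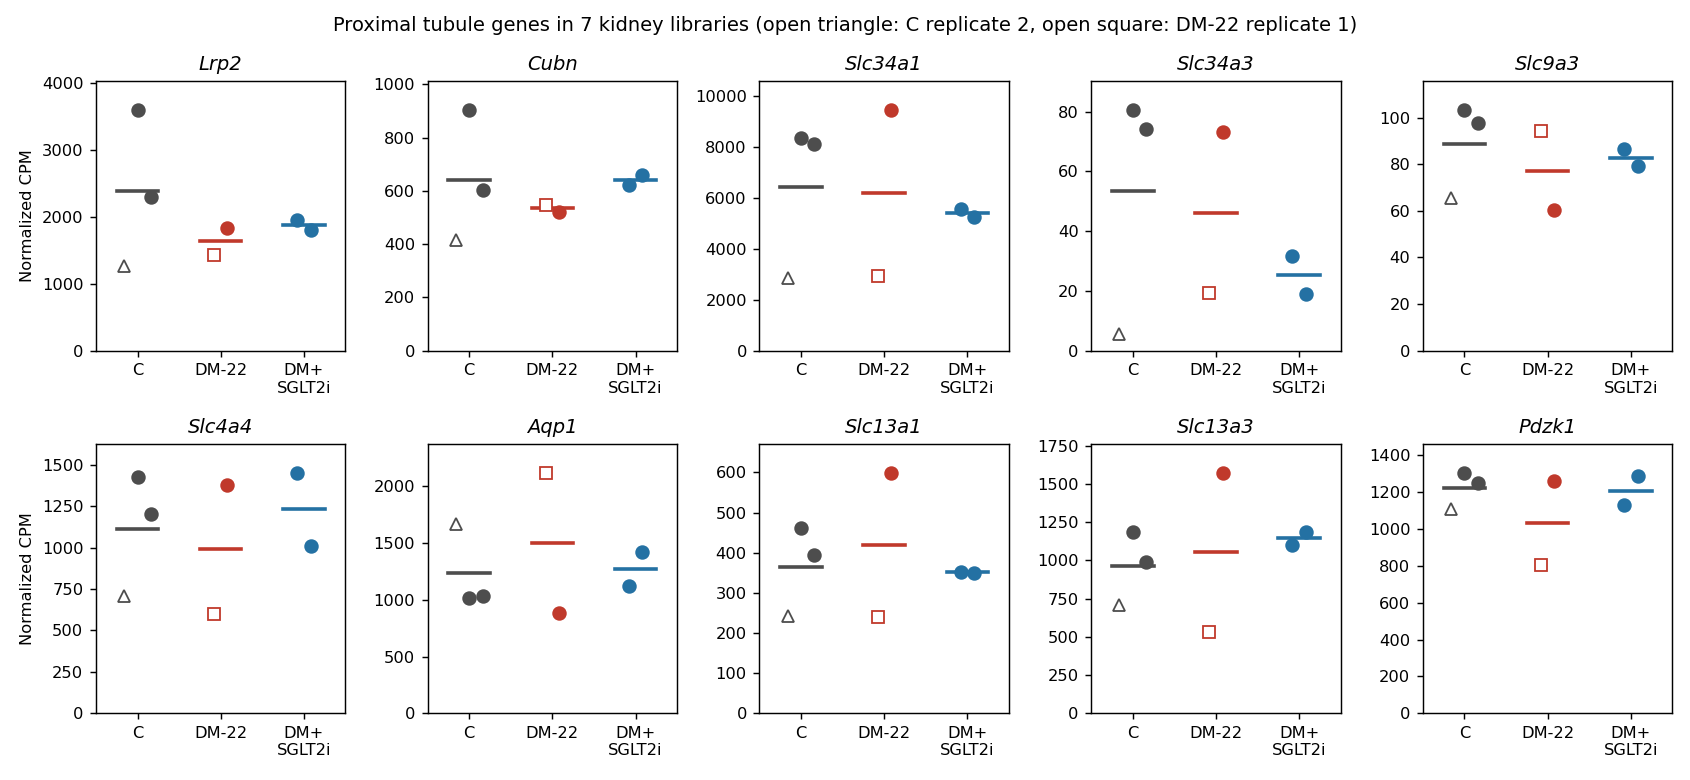
Normalized CPM of the 10 genes in each of the 7 libraries, with 1 panel per gene, every vertical axis starting at 0, and points standing for libraries and bars for group means. C replicate 2 (open triangle) and DM-22 replicate 1 (open square) lay below the rest of their groups for most genes and above them for Aqp1, as for Slc34a1 at 2841 and 2937 CPM.

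Megalin and cubilin, the partners in protein uptake, were highest in the controls C replicates 8 and 9 or in the treated mice, and lowest in C replicate 2. Lrp2 (ENSMUSG00000027070, chr2:69424340-69586065, minus strand) read 1258, 3597 and 2293 CPM in C replicates 2, 8 and 9, 1437 and 1838 in DM-22, and 1950 and 1799 in DM+SGLT2i. The 4 diabetic libraries lay close together, and the controls spread on both sides of them. Cubn (ENSMUSG00000026726, chr2:13276338-13491813, minus strand) read 416, 904 and 605 CPM in C, 549 and 520 in DM-22, and 621 and 660 in DM+SGLT2i. Both treated libraries lay above both untreated ones for Cubn, by a margin smaller than the spread of the controls. Lrp2 and Cubn moved much alike across libraries: after centring each on its own mean, they differed by a root mean square of 0.21 on the log2 scale, the second smallest of the 45 pairs. The ratio of Lrp2 to Cubn within a library was 3.02, 3.98 and 3.79 in C, 2.62 and 3.53 in DM-22, and 3.14 and 2.72 in DM+SGLT2i.

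The partners of the receptors are described next. Amn, the membrane anchor of cubilin, read 172, 184 and 171 CPM in C, 145 and 280 in DM-22, and 150 and 186 in DM+SGLT2i. Dab2, the adaptor that links megalin to clathrin, read 318, 776 and 676 CPM in C, 374 and 824 in DM-22, and 499 and 476 in DM+SGLT2i, so Dab2 differed by more between the 2 DM-22 mice than Lrp2 did. Of the 12 partners of endocytosis (among them Amn, Dab2, Lrpap1, Clcn5, Ocrl, Myo6, Gipc1, Rab5a, Rab11a, Fcgrt and Snx17), 0 passed the test in any comparison. Their median log2 fold change was 0.14 in DM-22 against C and -0.04 in DM+SGLT2i against C, and without C replicate 2 it was 0.11 and -0.07, again with 0 passing. Without that library Dab2 had -0.38 (SE 0.37) in DM-22 and -0.57 (SE 0.37) in DM+SGLT2i against C, beside 0.01 (SE 0.47) and -0.18 (SE 0.47) with it. Gipc1, an adaptor of megalin, had 0.58 (SE 0.23, adjusted p = 0.193, limma) in DM-22 against C without it and 0.33 (SE 0.30) with it. The smallest p-value in this list belonged to Fcgrt, the neonatal Fc receptor that recycles albumin, with a log2 fold change of -0.53 (SE 0.22) in DM+SGLT2i against DM-22 (adjusted p = 0.881, limma).

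The phosphate cotransporters showed the widest spread within groups. Slc34a1 (NaPi-IIa, ENSMUSG00000021490, chr13:55398187-55415592, plus strand), the main carrier of phosphate out of the urine, read 2841, 8363 and 8096 CPM in C, 2937 and 9452 in DM-22, and 5565 and 5233 in DM+SGLT2i. One control and one DM-22 library were thus about equally low, and the treated libraries stood between the extremes. Slc34a3 (NaPi-IIc, ENSMUSG00000006469, chr2:25228898-25234364, minus strand), which shares the task, read 5.70, 80.6 and 74.3 CPM in C, 19.2 and 73.3 in DM-22, and 31.7 and 19.0 in DM+SGLT2i. Its highest library exceeded its lowest by 14.1-fold, more than for any other of the 10 genes. C replicate 2 held 7.36% of the mean of C replicates 8 and 9 for Slc34a3 and 34.5% for Slc34a1. Both treated mice lay below C replicates 8 and 9 and DM-22 replicate 2 for Slc34a3, while DM-22 replicate 1 was as low as the lower treated mouse. The ratio of Slc34a1 to Slc34a3 was 499 in C replicate 2, 104 and 109 in the other controls, 153 and 129 in DM-22, and 176 and 275 in DM+SGLT2i.

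**Figure D2:**
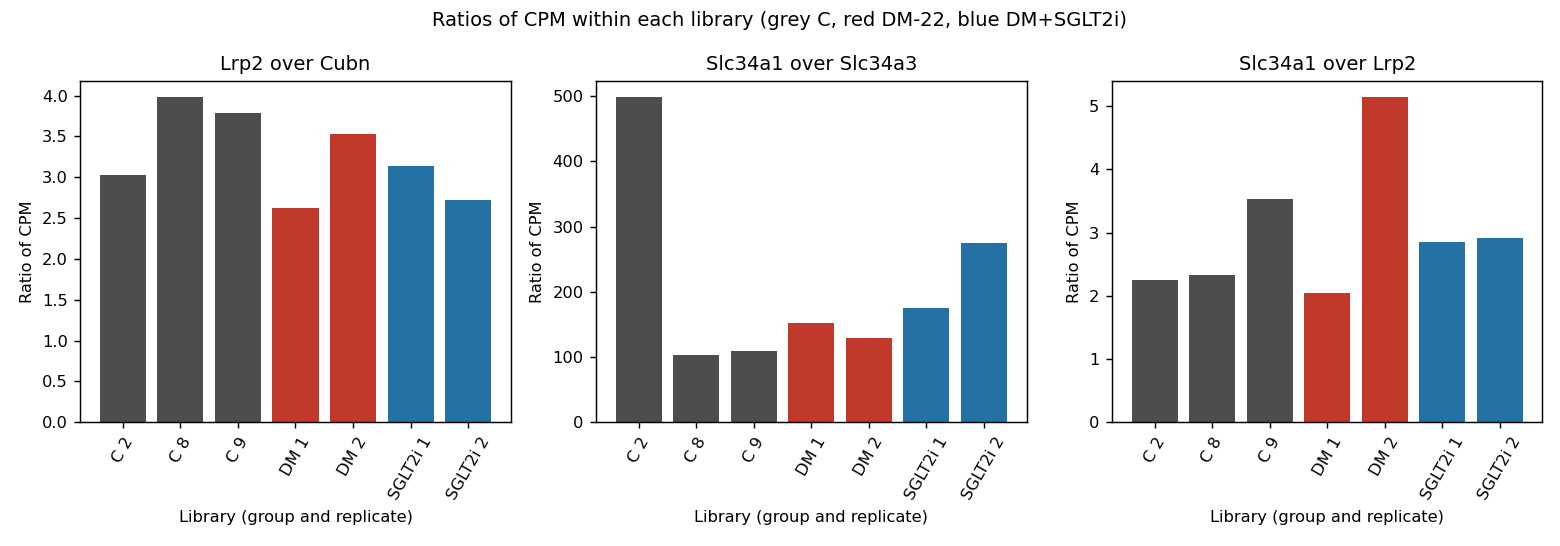
Ratios of CPM between 2 genes within each of the 7 libraries, as bars from 0 colored by group. The ratio of Lrp2 to Cubn stayed between 2.62 and 3.98, whereas that of Slc34a1 to Slc34a3 ran from 104 to 499 and that of Slc34a1 to Lrp2 from 2.04 to 5.14.

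Pdzk1 (ENSMUSG00000038298, chr3:96829284-96870926, plus strand), a PDZ scaffold that holds NaPi-IIa at the brush border, was the steadiest of the 10 genes, with 1.62-fold between its highest and lowest library. It read 1108, 1303 and 1248 CPM in C, 803 and 1257 in DM-22, and 1126 and 1284 in DM+SGLT2i, with DM-22 replicate 1 below the other 6 libraries. Its exons share 1333 bases with Gpr89 on the other strand. Gpr89 reached at most 36.6 CPM, and the strand setting of the counting is not given in the sources used here. Slc9a3r1 (NHERF1), a second scaffold of NaPi-IIa, read 283, 445 and 439 CPM in C, 284 and 374 in DM-22, and 295 and 366 in DM+SGLT2i. Of the 9 genes of phosphate transport and its scaffolds outside the 10 (Slc34a2, Slc20a1, Slc20a2, Xpr1, Slc9a3r1, Slc9a3r2, Pth1r, Fgfr1 and Pdzk1ip1), 0 passed the test. The smallest p-values belonged to Slc9a3r2, a scaffold related to NHERF1, with -0.37 (SE 0.15, log2) in DM+SGLT2i against DM-22 (adjusted p = 0.881, limma), and to Slc20a1, a phosphate carrier found in most cells, with -0.70 (SE 0.31) in DM-22 against C (adjusted p = 0.804, limma). Without C replicate 2, Slc20a1 had -0.92 (SE 0.28, adjusted p = 0.127, limma).

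The sodium and bicarbonate carriers differed from each other in the order of the libraries. Slc9a3 (NHE3, ENSMUSG00000036123, chr13:74121457-74169442, plus strand), which exchanges sodium for protons at the brush border, read 65.4, 103 and 97.8 CPM in C, 94.1 and 60.4 in DM-22, and 86.5 and 79.3 in DM+SGLT2i. Slc4a4 (NBCe1, ENSMUSG00000060961, chr5:88886818-89239653, plus strand), which returns bicarbonate to the blood, read 705, 1424 and 1205 CPM in C, 601 and 1377 in DM-22, and 1452 and 1010 in DM+SGLT2i. DM-22 replicate 1 was thus the lowest library for Slc4a4 and DM-22 replicate 2 the lowest for Slc9a3, which the thick ascending limb also expresses. Of 11 further genes of sodium, proton and bicarbonate handling (among them Ezr, Atp1b1, Fxyd2, Slc9a8, Car2, Car4, Car14, Ahcyl1 and Ahcyl2), 0 passed the test. With all libraries, the smallest p-value belonged to Car4, the carbonic anhydrase of the brush border, with -0.54 (SE 0.21, log2) in DM+SGLT2i against DM-22 (adjusted p = 0.881, limma). Without C replicate 2, Slc9a8 had -1.08 (SE 0.26, adjusted p = 0.0966, limma) in DM-22 against C. In DM+SGLT2i against C, Slc9a8 had -1.26 (SE 0.26, adjusted p = 0.115, limma) and Car2 had 0.69 (SE 0.18, adjusted p = 0.159, limma). Again 0 passed.

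Aqp1 (ENSMUSG00000004655, chr6:55336432-55348555, plus strand), the water channel of the proximal tubule, also of the descending thin limb and descending vasa recta, ran opposite to most of the other genes. It read 1667, 1017 and 1031 CPM in C, 2121 and 887 in DM-22, and 1120 and 1418 in DM+SGLT2i. DM-22 replicate 1 and C replicate 2 were the highest libraries for Aqp1, and both were the lowest for Slc34a1. The summed markers of thin limb and vasa recta (Slc14a1, Slc14a2, Bst1 and Sptssb) stood highest in these same libraries, at 329 and 125 CPM against 5.41 to 114 in the other 5. Slc14a2 gave 267 and 84.9 CPM of these sums and read 88.5 CPM in DM+SGLT2i replicate 2. Slc14a1 and Bst1 were highest in the same libraries as Aqp1, whereas Sptssb was highest in DM+SGLT2i replicate 1, at 15.6 CPM. The part of these cells in the Aqp1 values was not tested. Of 5 further genes of water and paracellular transport (Aqp7, Aqp8, Aqp11, Cldn2 and Cldn10), 0 passed the test. Cldn10, a tight junction claudin of proximal tubule and thick ascending limb, read 217, 160 and 145 CPM in C, 444 and 225 in DM-22, and 123 and 204 in DM+SGLT2i. Its log2 fold change was -0.99 (SE 0.40) in DM+SGLT2i against DM-22 (adjusted p = 0.881, limma), and that of Aqp8, a low-level water channel at 0.379 to 4.32 CPM, was 1.26 (SE 0.62) in DM+SGLT2i against C (adjusted p = 0.9997, limma), or 1.84 (SE 0.39, adjusted p = 0.122, limma) without C replicate 2.

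The sulfate and dicarboxylate carriers moved together. Slc13a1 (NaS1, ENSMUSG00000029700, chr6:24088283-24168092, minus strand), which takes up sulfate, read 243, 460 and 394 CPM in C, 241 and 599 in DM-22, and 353 and 350 in DM+SGLT2i. Slc13a3 (NaDC3, ENSMUSG00000018459, chr2:165405028-165473230, minus strand), which takes up dicarboxylates such as succinate from the blood side, read 711, 1186 and 992 CPM in C, 534 and 1574 in DM-22, and 1104 and 1189 in DM+SGLT2i. DM-22 replicate 2 was the highest library and DM-22 replicate 1 the lowest for both. This pair had the smallest difference of centred values of all 45 pairs, a root mean square of 0.19 (log2), and the pair farthest apart was Slc34a3 and Aqp1 at 1.63. Of 7 further genes of sulfate and dicarboxylate transport (Slc26a1, Slc26a2, Slc26a6, Slc13a2, Slc13a5, Papss1 and Papss2), 0 passed the test. Slc13a2, the citrate carrier of the brush border, read 66.5, 55.5 and 51.0 CPM in C, 43.3 and 48.9 in DM-22, and 66.2 and 68.1 in DM+SGLT2i, a log2 fold change of 0.54 (SE 0.17) between the diabetic groups (adjusted p = 0.881, limma). Papss2, which makes the activated form of sulfate, read 429, 469 and 372 CPM in C and 557 and 592 in DM+SGLT2i, a log2 fold change of 0.45 (SE 0.17, adjusted p = 0.9997, limma), or 0.46 (SE 0.17, adjusted p = 0.256, limma) without C replicate 2.

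**Figure D3:**
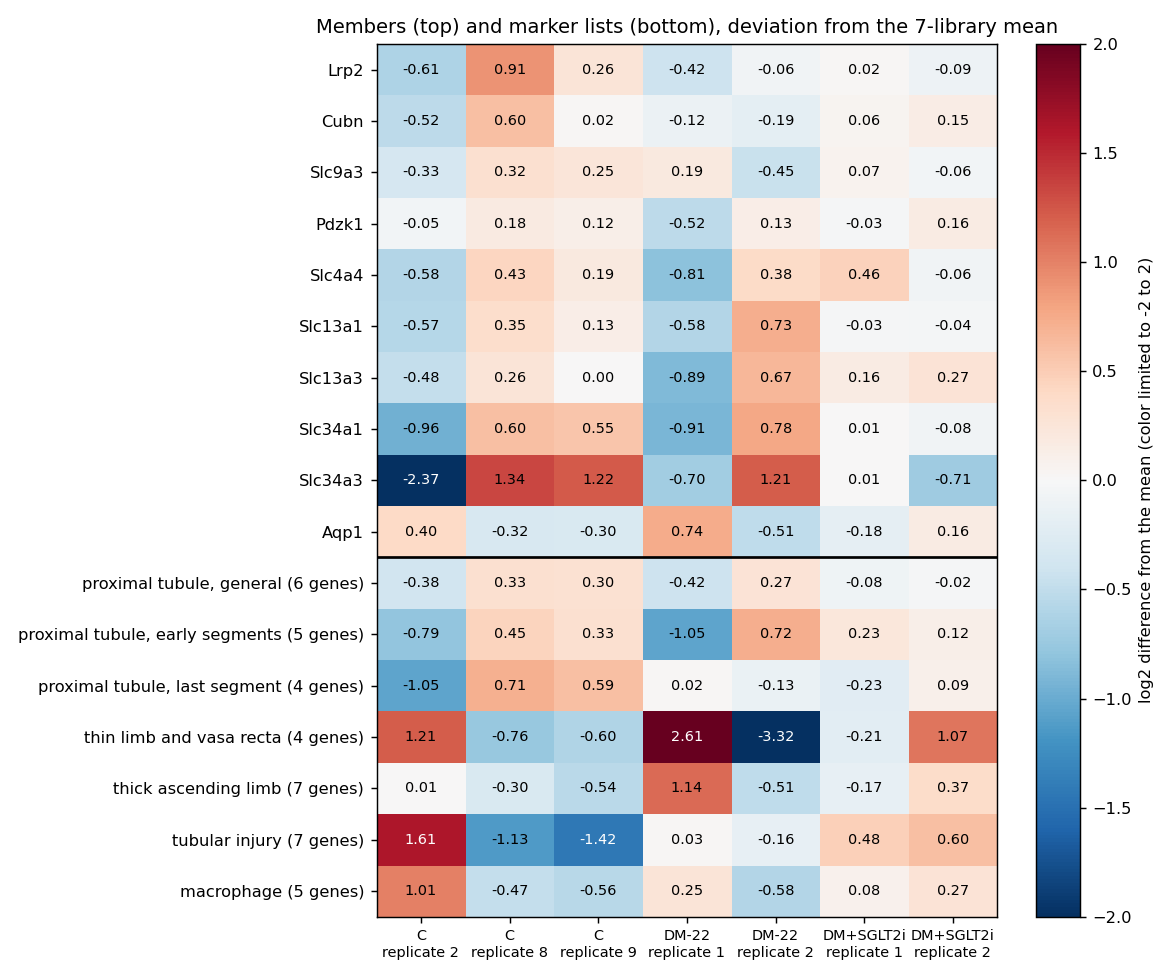
Deviation of each library from the 7-library mean for the 10 genes (top, log2(CPM + 0.5)) and for the summed CPM of 7 marker lists (bottom, log2), with the value in each cell and red for above the mean. C replicate 2 and DM-22 replicate 1 lay below the mean for 9 and 8 of the 10 genes, with Aqp1 above it in both.

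Seen by library rather than by gene, C replicate 2 was among the 2 lowest libraries for 9 of the 10 genes, the exception being Aqp1, at 163% of the mean of C replicates 8 and 9. The same library held 62.0% of that mean for the summed general proximal tubule markers, 44.0% for those of the early segments and 30.6% for those of the last segment. The 4 markers of the last segment did not move alike, as Slc5a1 (SGLT1) was at 188 CPM there against 82.7 and 70.2 in the other controls, while Atp11a and Slc7a13 stood at 25.8% and 25.7% of their mean. DM-22 replicate 2 exceeded DM-22 replicate 1 by 3.81-fold for Slc34a3, 3.22-fold for Slc34a1, 2.95-fold for Slc13a3, 2.49-fold for Slc13a1 and 2.29-fold for Slc4a4. Replicate 1 exceeded replicate 2 by 2.39-fold for Aqp1 and 1.56-fold for Slc9a3, and Lrp2 (1.28-fold, replicate 2 higher) and Cubn (1.05-fold, replicate 1 higher) were similar in both. Summed markers of the early segments showed a like gap, 4950 CPM in DM-22 replicate 2 against 1448 in replicate 1, whereas those of the last segment did not, at 1743 and 1926. The part of tissue makeup in these gaps was not tested. Over the 10 genes, the median SD between libraries of a group was 0.59 on the log2 scale.

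With all 7 libraries, none of the 10 genes passed the test between groups. In each of the 4 comparisons (DM-22 against C, DM+SGLT2i against C, DM+SGLT2i against DM-22, and the 4 diabetic libraries against C), 0 of 10 passed an adjusted p of 0.05 by limma on log2(CPM + 0.5), as did 0% of all genes tested, and 0 of 10 had an unadjusted p under 0.05. In DM-22 against C, 1.19% of all genes had an unadjusted p under 0.05 and were higher, and 3.28% were lower. The corresponding shares were 0.665% and 0.415% in DM+SGLT2i against C, 2.25% and 1.66% in DM+SGLT2i against DM-22, and 0.658% and 1.38% in the diabetic libraries against C. The comparisons with C share the control libraries, and both comparisons of DM-22 share the DM-22 libraries.

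Against C, the untreated diabetic mice had 7 of the 10 genes lower and 3 higher (Aqp1, Slc34a3 and Slc13a1), with a median log2 fold change of -0.16 against 0.00 over all genes tested. These directions are those of mean log2 values. By mean CPM, Slc34a3 was lower (46.2 against 53.5) and Slc13a3 higher (1054 against 963) in DM-22. The median rested on single libraries: it was 0.21, with 6 genes higher and 4 lower, without DM-22 replicate 1, -0.60 without DM-22 replicate 2 and 0.08 without C replicate 8. The largest difference was that of Lrp2, -0.42 (SE 0.46, 95% interval -1.52 to 0.67, adjusted p = 0.834, limma), which was -0.06 without C replicate 8, -0.25 without DM-22 replicate 1 and -0.82 without C replicate 2. Slc34a3 had 0.19 (SE 1.18, interval -2.64 to 3.02), so a severalfold change in either direction remains within its interval. Pdzk1, the steadiest gene, had -0.28 (SE 0.26, interval -0.91 to 0.36). In DM+SGLT2i against C, 6 genes were lower and 4 higher, and the median was -0.01 against -0.01 over all genes, 0.18 without C replicate 8 and 0.07 without C replicate 9. The log2 fold changes ran from -0.42 (SE 1.18) for Slc34a3 to 0.28 (SE 0.47) for Slc13a3. In DM+SGLT2i against DM-22, 7 genes were higher and 3 lower, with a median of 0.17 against 0.00, from -0.60 (SE 1.29) for Slc34a3 to 0.41 (SE 0.51) for Slc4a4. This median was -0.12, with 4 genes higher and 6 lower, without DM-22 replicate 1, 0.46 without DM-22 replicate 2 and 0.11 without DM+SGLT2i replicate 1. Cubn, at 0.26 (SE 0.35, interval -0.59 to 1.11), was the 1 gene of the 10 whose libraries did not overlap between these groups, as was so in the same direction for 21.4% of all genes tested and in the other for 20.0%. Against C, 0 of 10 were without overlap in either diabetic group, beside 10.8% of all genes higher and 9.29% lower in DM-22, and 5.67% higher and 6.59% lower in DM+SGLT2i. For the 4 diabetic libraries together the count was also 0 of 10, beside 1.31% higher and 1.38% lower. With the 4 diabetic libraries together, the median against C was -0.09 beside 0.00 over all genes, 0.05 without DM-22 replicate 1 and -0.17 without DM-22 replicate 2.

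**Figure D4:**
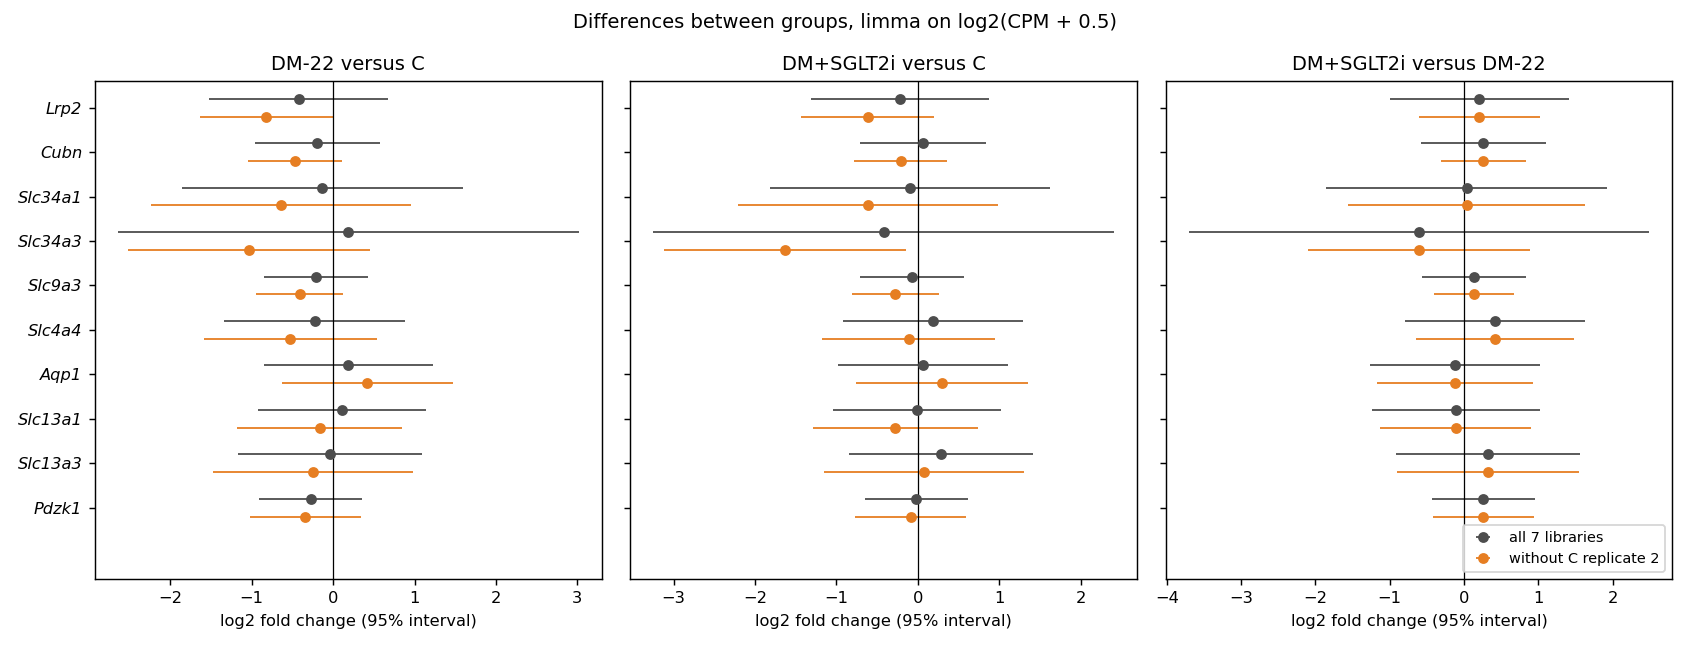
Log2 fold changes of the 10 genes with their 95% intervals in 3 comparisons, from limma on all 7 libraries (grey) and without C replicate 2 (orange), with a vertical line at no change. All grey intervals cross 0, and without C replicate 2 those of Lrp2 in DM-22 (-0.82) and of Slc34a3 in DM+SGLT2i (-1.63) against C lie below it.

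Leaving out C replicate 2 moved the comparisons with controls downward for 9 of the 10 genes and upward for Aqp1. The remaining C replicates 8 and 9 stood apart from the other 5 libraries in more than these genes: the 2 nuclear-retained RNAs (Malat1 and Neat1) summed to 457 and 627 CPM in them against 58.4 to 209. Arntl, a core gene of the circadian clock, was at 1.21 to 1.77 CPM in the 3 controls against 5.07 to 19.4 in the diabetic libraries. The part of these differences in the values below was not tested. In DM-22 against C replicates 8 and 9, 9 of the 10 genes were lower, with a median log2 fold change of -0.44 against 0.00 over all genes, and in DM+SGLT2i 8 of 10, with a median of -0.24 against -0.03. Still 0 of the 10 passed the adjusted threshold, beside 0.00722% of all genes in each direction in DM-22 against C, 0.108% higher and 0.0144% lower in DM+SGLT2i, and 0.130% higher and 0.0722% lower in the diabetic libraries together. The unadjusted shares below are those of all genes in the same direction, and 0 of the 10 were under 0.05 and higher, beside 10.5%, 8.68% and 10.4% of all genes in these comparisons. At an unadjusted p under 0.05, Lrp2 was lower in DM-22, at -0.82 (SE 0.33, adjusted p = 0.194, limma), as were 15.0% of all genes. Slc34a3 was lower in DM+SGLT2i, at -1.63 (SE 0.60, adjusted p = 0.245, limma), as were 9.23% of all genes. In the diabetic libraries together, Lrp2 (-0.72, SE 0.29) and Slc34a3 (-1.33, SE 0.52) were the ones under 0.05, with adjusted p-values of 0.195 and 0.191 (limma) and a share of 14.6% over all genes. Lrp2, Cubn, Slc34a3 and Slc9a3 lay below both remaining controls in both DM-22 libraries, beside 29.5% of all genes, and 0 of 10 above them, beside 29.9%. In both DM+SGLT2i libraries Lrp2, Slc34a1, Slc34a3, Slc9a3 and Slc13a1 lay below them, beside 33.5% of all genes, and Aqp1 above them, beside 28.2%. Lrp2, Slc34a3 and Slc9a3 lay below them in all 4 diabetic libraries, beside 20.8% of all genes, and 0 of 10 above them, beside 15.1%. Aqp1 was the 1 gene with a positive difference in DM-22, at 0.42 (SE 0.43).

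Leaving out DM-22 replicate 1 as well was a choice made after seeing the data, and it left 1 library in DM-22. Both libraries left out stood apart from their groups, also in these genes. The spread of the rest is small by that choice, so this fit cannot decide which genes differ. Its log2 fold changes alone are given, for genes picked from the calls of this same fit, so they lend no further support. Slc34a3 was at -1.63 in DM+SGLT2i against C and at -1.56 against DM-22. DM-22 replicate 1 had read 19.2 CPM for Slc34a3, near the 19.0 of DM+SGLT2i replicate 2. The difference from DM-22 thus rests on 1 mouse. C replicate 2, the other library left out, had read 5.70 CPM, below every diabetic library. Slc9a3 was at -0.73 in DM-22 against C, again from 1 DM-22 mouse. DM-22 replicate 1 had read 94.1 CPM for Slc9a3, near the 103 and 97.8 of C replicates 8 and 9. In the 3 remaining diabetic libraries together against C, Slc34a3 was at -1.12 and Slc9a3 at -0.43. The counts were 1, 1, 1 and 2 of 10 in DM-22 against C, DM+SGLT2i against C, DM+SGLT2i against DM-22 and diabetic against C, beside 5.39%, 12.8%, 3.52% and 13.5% of all genes passing in either direction. Of the 50 further genes, Dab2 was at -0.57, Hnf4a at -0.69 and Aqp8 at 1.84 in DM+SGLT2i against C. Nr1h4 was at -0.66 in that comparison and at -1.30 in DM-22 against C. The spread between DM-22 mice cannot be estimated from the lone DM-22 library.

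Factors known to drive proximal tubule genes stood lowest in C replicate 2 for the 2 factors described here. Hnf4a, a main regulator of the mature proximal tubule, read 532, 1242 and 1200 CPM in C, 729 and 1240 in DM-22, and 816 and 707 in DM+SGLT2i. Nr1h4, the bile acid receptor FXR, read 70.6, 195 and 214 CPM in C, 101 and 82.6 in DM-22, and 149 and 112 in DM+SGLT2i. Of 6 such factors (among them Hnf4a, Hnf4g, Nr1h4 and Esrra), 0 passed the test, with a log2 fold change of -0.65 (SE 0.48) for Nr1h4 in DM-22 against C (adjusted p = 0.804, limma). Without C replicate 2, Nr1h4 had -1.16 (SE 0.19, adjusted p = 0.0820, limma), the median of the 6 was -0.68 in DM-22 and -0.52 in DM+SGLT2i, and 0 passed. Over all 50 further genes of proximal tubule reabsorption, 0 passed in any of the 4 comparisons with all libraries.

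Outside these lists, the 5 genes whose centred values lay closest to the mean of the 10 genes, among 9581 genes tested with a mean of at least 10 CPM, included Sgsm2, Hspa12a, Myo15b and Fam210a. The root mean square differences of the 5 over the 7 libraries were 0.06 to 0.07 on the log2 scale. Sgsm2 read 34.1, 68.9 and 60.5 CPM in C, 36.7 and 67.1 in DM-22, and 54.4 and 48.5 in DM+SGLT2i. By the same measure Slc13a1 (0.22) and Lrp2 (0.23) lay closest to the mean of the other 9 genes, and Aqp1 (0.83) and Slc34a3 (1.05) farthest from it.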

How the data were processed

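The authors deposited log2 values of CPM normalized by the TMM method for 17537 genes, after bcl2fastq, FastQC, Trim Galore, STAR (mm10) and edgeR per the labels. Versions and the counting step are not given in the sources used here. The design assumed CPM. Undoing the logarithm and subtracting the constant held by genes without reads (-4.66 on the log2 scale) returned CPM, which gave whole reads for 100% of the values (tolerance 0.1 reads). 1 read equals 0.0180 to 0.0231 CPM. Genes reaching 1 CPM in 2 or more libraries were tested with limma 3.58.1 (trend, R 4.3.3) on log2(CPM + 0.5), 3 groups in 1 fit, two-sided, with Benjamini-Hochberg adjustment and a threshold of 0.05. The procedure was tested on simulated data in which no library stood apart from its group, so that test does not cover the spread seen here. Fold changes are on this scale and understate those of low genes. P-values weigh each group difference against the spread between libraries within groups, which limma estimates in part from all genes. RPKM used GENCODE M21 exon lengths, positions are from the same annotation (GRCm38, the build mm10), and 0 value columns were left out. All 10 members are named, with the 2 genes of smallest p per list, and Hnf4a, Slc9a3r1, Amn and Dab2, except that some items are not reported here. The members and lists were chosen with earlier results of these data known. Alternatives were each left-out library, other pseudocounts, no filter, 2 other scalings, voom weights, fits of the compared groups alone and a replicate block.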

Additional observations from a re-analysis of the deposited data

How the results depend on the processing

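Of 600 values of the 10 genes under 16 alternatives, 520 kept direction and call and 75 changed sign. The remaining 5 came from the fit without both C replicate 2 and DM-22 replicate 1. That fit left 1 library in DM-22, and its calls are not used. The cause of the sign changes was not tested. Part of the 520 could not change direction by construction. These are the 40 values without the filter, the 30 of the compared groups alone and the 10 with the replicate block. The same holds where the library left out is in neither group compared. The count of kept values therefore overstates stability. No gene of the 10 passed under pseudocounts of 0.1 or 2 CPM, no filter, either scaling, voom, fits of the compared groups alone, or leaving out any 1 library. Scaling to the library total, which moved the median of all genes by 0.11 in DM+SGLT2i against DM-22, turned Slc13a1 (0.013) and Pdzk1 (0.00094) in DM+SGLT2i against C. Same-numbered DM-22 and DM+SGLT2i libraries did not deviate together (r = -0.04 across genes), and with the replicate block 0 members and 0 genes were called. The median of 0.17 cannot move with this block, which holds 1 library of each group at each replicate number. The number of libraries limits every comparison: groups of 2 and 3 with a within-group SD of 0.59 (log2).

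Leaving out 1 library at a time gave 0 to 2 genes called in all for DM-22 against C, 0 to 17 for DM+SGLT2i against C and 0 to 28 for the diabetic libraries against C, the highest counts being without C replicate 2. Of the 60 sign changes from leaving out 1 library, none of a called value, 15 each came without C replicate 8 and without DM-22 replicate 1, 10 without C replicate 9, 8 without DM-22 replicate 2, 6 without C replicate 2, and 4 and 2 without DM+SGLT2i replicates 1 and 2. Log2 fold changes in DM-22 against C then ran from -0.82 to -0.064 for Lrp2, -0.47 to 0.091 for Cubn, -0.97 to 0.71 for Slc34a1, -1.03 to 1.14 for Slc34a3, -0.53 to 0.11 for Slc9a3, -0.83 to 0.37 for Slc4a4, -0.44 to 0.82 for Aqp1, -0.55 to 0.76 for Slc13a1, -0.82 to 0.74 for Slc13a3 and -0.60 to 0.047 for Pdzk1. In DM+SGLT2i against C they ran from -0.62 to 0.14 for Lrp2, -0.21 to 0.35 for Cubn, -0.61 to 0.17 for Slc34a1, -1.63 to 0.22 for Slc34a3, -0.28 to 0.049 for Slc9a3, -0.11 to 0.45 for Slc4a4, -0.10 to 0.30 for Aqp1, -0.28 to 0.19 for Slc13a1 and -0.11 to 0.078 for Pdzk1. In DM+SGLT2i against DM-22 they ran from -0.81 to 0.88 for Slc34a1, -1.56 to 0.35 for Slc34a3, -0.18 to 0.45 for Slc9a3, -0.19 to 1.01 for Slc4a4, -0.75 to 0.51 for Aqp1, -0.77 to 0.54 for Slc13a1, -0.46 to 1.10 for Slc13a3 and -0.064 to 0.58 for Pdzk1. In the diabetic libraries against C they ran from -0.72 to 0.039 for Lrp2, -0.34 to 0.22 for Cubn, -0.63 to 0.17 for Slc34a1, -1.33 to 0.52 for Slc34a3, -0.32 to 0.25 for Slc4a4, -0.10 to 0.36 for Aqp1, -0.22 to 0.25 for Slc13a1, -0.085 to 0.44 for Slc13a3 and -0.22 to 0.0041 for Pdzk1. Genes missing from these lists kept their sign. They were Slc13a3 in DM+SGLT2i against C (0.079 to 0.45) and Slc9a3 in the diabetic libraries against C (-0.35 to -0.012). In DM+SGLT2i against DM-22 they were Lrp2 (0.027 to 0.38) and Cubn (0.22 to 0.31).

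Without both C replicate 2 and DM-22 replicate 1, chosen after seeing the data, 742 genes were called in DM-22 against C (1 member, 3 of the 50 further genes), 1765 in DM+SGLT2i against C (1 and 8), 484 in DM+SGLT2i against DM-22 (1 and 2) and 1863 in the diabetic libraries against C (2 and 6). Sign changes were Slc34a1 (0.20), Slc34a3 (-0.078), Slc4a4 (0.072), Aqp1 (-0.21) and Slc13a3 (0.54) in DM-22 against C, Cubn (-0.21) and Slc4a4 (-0.11) in DM+SGLT2i against C, Slc34a1 (-0.81), Slc4a4 (-0.19), Aqp1 (0.51), Slc13a3 (-0.46) and Pdzk1 (-0.064) in DM+SGLT2i against DM-22, and Slc13a1 (-0.019) in the diabetic libraries against C.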
